A study of Homo sapiens with 4 samples.

Results

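The expression of collagens, laminins, lysyl oxidases and 5 partner genes of the extracellular matrix was followed through hematopoietic differentiation of human pluripotent stem cells. The genes were chosen by symbol alone: every numbered collagen chain, laminin chain and lysyl oxidase gene in the deposited table, plus FN1, NID1, NID2, HSPG2 and SPARC. This gave 66 of the 58274 genes of the table. Each of 4 populations was sequenced as 1 library: undifferentiated BC1 cells, which are an induced pluripotent line of human origin, and cells sorted from differentiating BC1 cultures as APLNR+ mesoderm cells on day 2, CD31+CD34+ hemogenic endothelial progenitors (HEPs) on day 5 and CD43+ hematopoietic progenitor cells (HPCs) on day 8. The cultures received activin A and BMP4, then VEGF and bFGF, and all 4 libraries come from the same cell line. With 1 library in each population there was no replicate, so no difference was tested and no p-value is given.

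The extracellular matrix is the protein scaffold that cells secrete around themselves. Collagens are built from 3 chains wound into a triple helix. Fibrillar collagens assemble into fibrils, whereas collagen IV forms the sheet of the basement membrane together with the laminins, which are trimers of an alpha, a beta and a gamma chain. Nidogens and perlecan link both networks, and lysyl oxidases crosslink collagen and elastin. Endothelial cells rest on a basement membrane, while blood cells leave it when they enter the circulation.

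Levels are given in FPKM, the number of fragments for each kilobase of a transcript in 1000000 mapped ones, so that genes of different length can be compared. A gene is said to rise or fall when log2(FPKM + 1) changed by at least 1 between libraries, a scale that understates changes of low genes. Fold changes are ratios of FPKM with 95% Clopper-Pearson intervals from estimated fragments, which cover counting error only. The estimated depth was between 19700000 and 23600000 fragments a library. The sorting markers followed the labels: APLNR was highest in APLNR+ cells at 1073 FPKM, CD34 in HEPs at 102 FPKM, and SPN, the CD43 gene, in HPCs at 92.4 FPKM. PECAM1, the gene of CD31, was at 93.1 FPKM in HEPs and 126 FPKM in HPCs. Of the 66 matrix genes, 34 reached 10 FPKM in at least 1 library, 16 lay between 1 and 10 FPKM, and 16 stayed under 1 FPKM throughout. The 50 genes that reached 1 FPKM were used for counts, beside 17137 genes of the whole table kept by the same filter.

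Promoter sequence is shown for a pair of genes that moved together and for COL24A1 and LOX, which rose in CD43+ HPCs. RefSeq places COL4A1 and COL4A2, the 2 chains of the common collagen IV molecule, head to head on chromosome 13, with start sites 127 bases apart on opposite strands. The 126 bases between the start sites, chr13:110307158-110307283 on GRCh38.p14 (plus strand), are printed first, since these genes share them. The 250 bases before the outermost RefSeq start sites of COL24A1 (chr1:86156773-86157022, minus strand) and LOX (chr5:122078260-122078509, minus strand) follow. Gene limits in the deposited data differ from RefSeq there. COL24A1 reaches to position 86156943, LOX to 122078360, and COL4A2 begins at 110305812. Each printed window therefore overlaps a gene as placed in the deposited data. COL2A1 had no entry in the promoter table. Capitals mark every match, on either strand, to CCAAT (the CCAAT box), to GGGCGG (the GC box), to TATAAA (the TATA box), to AGATAA (the GATA factor core) or to TGTGGT (the RUNX factor core).
COL4A1-COL4A2: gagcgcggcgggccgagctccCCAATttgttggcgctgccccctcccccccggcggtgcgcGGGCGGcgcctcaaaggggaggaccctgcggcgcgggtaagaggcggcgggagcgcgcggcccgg
COL24A1: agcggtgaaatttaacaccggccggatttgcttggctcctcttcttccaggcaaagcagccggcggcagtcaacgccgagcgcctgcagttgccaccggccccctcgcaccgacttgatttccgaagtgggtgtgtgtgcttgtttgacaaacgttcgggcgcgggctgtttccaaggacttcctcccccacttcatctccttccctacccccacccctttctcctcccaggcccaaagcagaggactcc
LOX: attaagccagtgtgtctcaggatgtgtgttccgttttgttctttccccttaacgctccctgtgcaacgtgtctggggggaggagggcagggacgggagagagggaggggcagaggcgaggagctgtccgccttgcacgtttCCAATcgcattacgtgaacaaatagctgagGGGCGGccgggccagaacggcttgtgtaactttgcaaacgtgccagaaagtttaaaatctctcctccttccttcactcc

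The shared COL4A1 and COL4A2 sequence held 1 CCAAT and 1 GGGCGG, which occur in 21.1% and 34.6% of all 35116 RefSeq promoter windows cut to the same length. The LOX sequence also held 1 CCAAT and 1 GGGCGG, and the COL24A1 sequence held none of the 5 motifs. Of the 66 genes, 50 had a RefSeq promoter entry. Each was counted once, at its outermost start site, whereas the 35116 windows can hold several start sites of the same gene. Among these 50, 13 (26%) had CCAAT, against 32.0% of all promoters, and 29 (58%) had GGGCGG, against 42.6%. AGATAA was found in 3 and TGTGGT in 1 of the 50, against 9.17% and 11.0% of all promoters. TATAAA was found in 5 (10%), against 10.7%. These matches describe letters within the windows and were not linked to binding.

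The summed level of the 66 genes was 1266 FPKM in BC1 cells, 3410 FPKM in APLNR+ cells, 2930 FPKM in HEPs and 1204 FPKM in HPCs. This was 0.201%, 0.551%, 0.483% and 0.182% of all FPKM of each library. Matrix transcripts thus took the largest share in the mesoderm and endothelial libraries, and SPARC alone made up much of the mesoderm value. Of the 50 genes kept, 8 were highest in BC1, 14 in APLNR+ cells, 21 in HEPs and 7 in HPCs. Of all genes kept, 27.7%, 22.7%, 25.5% and 24% were highest in these populations, so HEPs held 42% of the matrix genes and 25.5% of all genes.

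**Figure D1:**
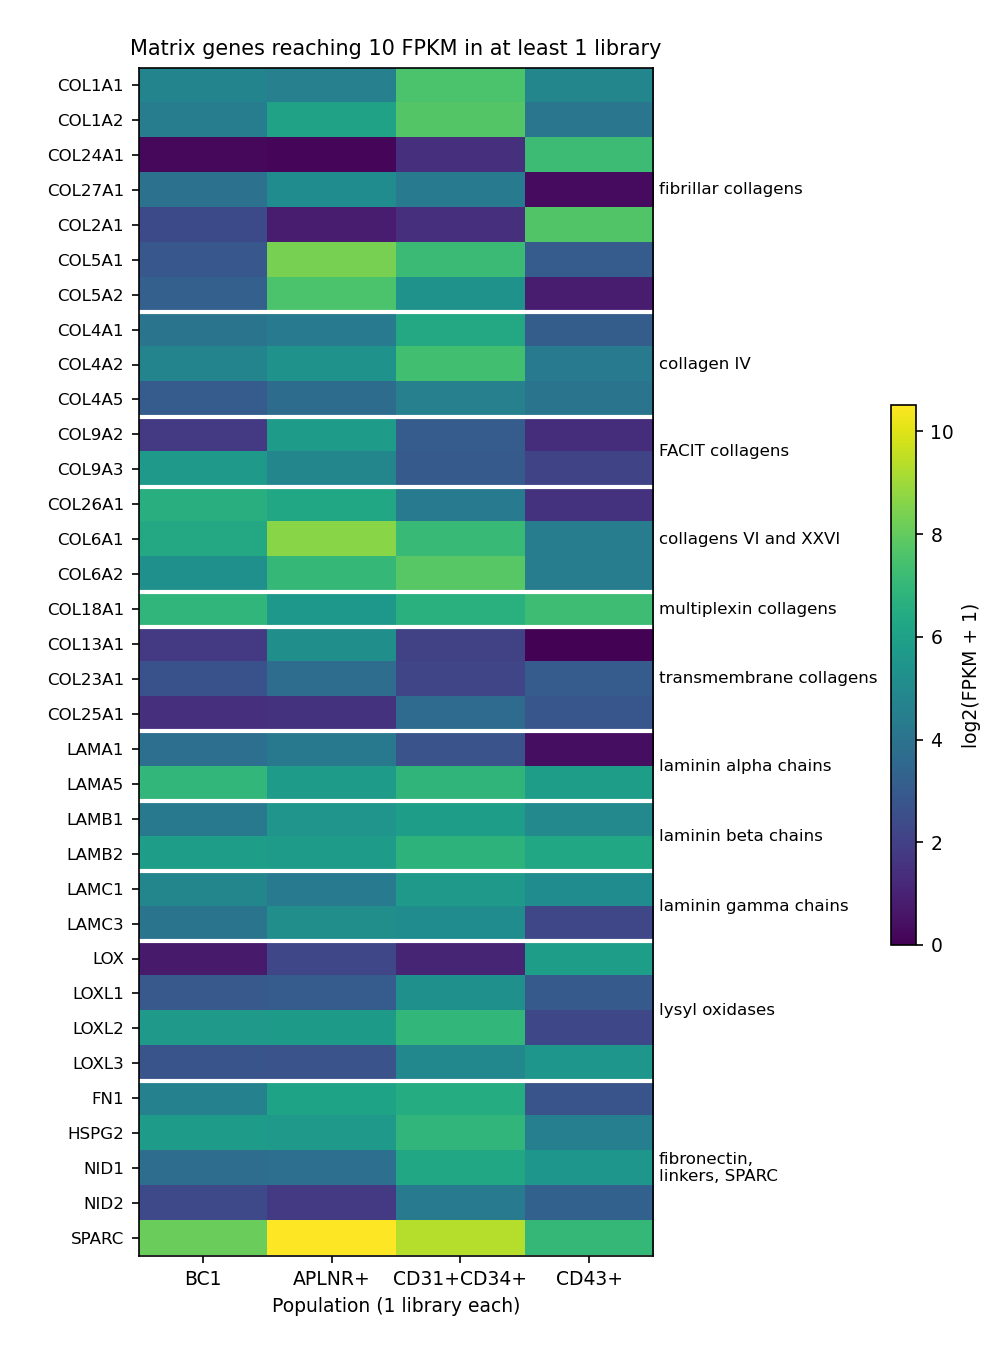
Level of the 34 matrix genes that reached 10 FPKM, as log2(FPKM + 1) by colour, with populations in columns and genes in rows grouped by type. COL5A1, COL5A2 and COL6A1 are brightest in APLNR+ cells, COL1A1, COL1A2, COL4A1 and COL4A2 in CD31+CD34+ cells, and COL2A1, COL24A1 and LOX in CD43+ cells.

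From BC1 to APLNR+ mesoderm, 15 of the 50 genes rose (30%) and 7 fell (14%). Across all genes kept, 9.15% rose and 9.32% fell. The median change of the matrix genes was 0.21, against 0.00 for all genes. From APLNR+ cells to HEPs, 18 genes rose (36%) and 14 fell (28%), where 13% and 11.4% of all genes did so, and the median changes were 0.37 and 0.01. From HEPs to HPCs, 4 rose (8%) and 24 fell (48%), where 7.63% and 13.5% of all genes did so, with medians of -0.90 and -0.08. The share that rose at the last transition was therefore near that of all genes, while the share that fell was larger. A change of at least 2 was found in 6 matrix genes that rose and 2 that fell in mesoderm (2.68% and 2.29% of all genes). In HEPs 8 rose and 3 fell by as much (4.08% and 3.15% of all genes), and in HPCs 3 rose and 17 fell (2.28% and 4.32% of all genes). In bulk libraries, fewer cells of a type and less RNA per cell cannot be told apart.

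**Figure D2:**
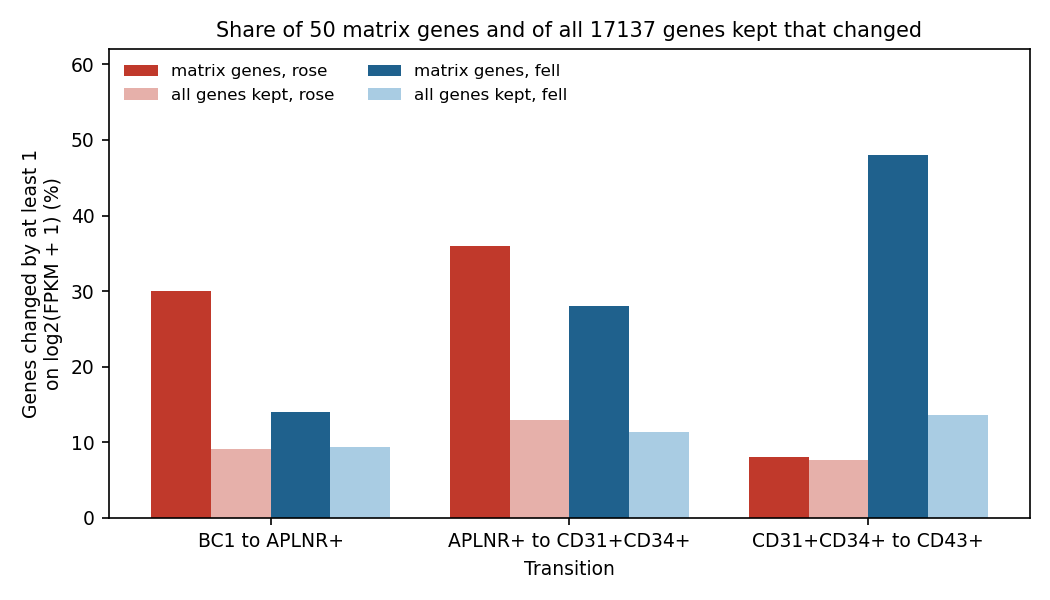
Percent of genes with a rise or a fall of 1 or more on log2(FPKM + 1) at each of the 3 transitions, with dark bars for the 50 matrix genes and pale bars for all 17137 genes kept. Red bars stand for rises and blue bars for falls, and the tallest bar is the 48% of matrix genes that fell from CD31+CD34+ to CD43+, beside 13.5% of all genes.

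The matrix genes that rose and then fell along this path were counted. Of the 50 matrix genes, 20 (40%) rose from BC1 to APLNR+ cells or to HEPs and fell from HEPs to HPCs, against 7.08% of all genes kept. They were 5 fibrillar collagen genes (COL1A1, COL1A2, COL5A1, COL5A2, COL27A1), 3 collagen IV genes (COL4A1, COL4A2, COL4A6), COL6A1, COL6A2, COL9A2, COL13A1, COL15A1, LAMC3, LOXL1, LOXL2, FN1, HSPG2, NID2 and SPARC. No laminin alpha or beta chain was among them. The course was seen in 4 of the 5 genes FN1, NID1, NID2, HSPG2 and SPARC and in 3 of the 4 collagen IV genes kept. The transitions share libraries, since each middle population ends 1 and starts the next.

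Fibrillar collagens were first compared, and they separated by stage. COL5A1 and COL5A2 encode collagen V, a minor fibrillar collagen that helps to start collagen I fibrils. COL5A1 was at 6.13 FPKM in BC1 cells, 325 FPKM in APLNR+ cells, 143 FPKM in HEPs and 7.38 FPKM in HPCs. COL5A2 was at 8.44, 182, 41.0 and 0.746 FPKM in the same order. Both were thus far higher in mesoderm than in BC1, by 52.9-fold (49.7 to 56.4) and 21.6-fold (20.3 to 23.0), and both fell at each later step. The fall from HEPs to HPCs was 19.4-fold (18.4 to 20.5) for COL5A1 and 55.0-fold (44.8 to 67.7) for COL5A2.

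Collagen I, the main collagen of connective tissue, followed a later course. COL1A1 was at 26.0 FPKM in BC1 cells, 22.9 FPKM in APLNR+ cells, 184 FPKM in HEPs and 27.7 FPKM in HPCs. COL1A2 was at 20.9, 65.0, 207 and 16.3 FPKM. Both chains peaked in HEPs. COL1A1 rose at the second transition only, by 8.02-fold (7.62 to 8.44), whereas COL1A2 rose 3.11-fold (2.95 to 3.27) in mesoderm and a further 3.19-fold (3.10 to 3.28) in HEPs. The ratio of COL1A2 to COL1A1 was 0.803 in BC1, 2.84 in APLNR+ cells, 1.13 in HEPs and 0.590 in HPCs. COL3A1, the chain of collagen III of elastic tissues, was at 0.309, 0.825, 8.94 and 4.87 FPKM. It was 10.8-fold higher (8.36 to 14.2) in HEPs than in mesoderm.

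COL27A1, a fibrillar collagen known from cartilage, was at 14.1 FPKM in BC1 cells, 33.7 FPKM in APLNR+ cells, 18.7 FPKM in HEPs and 0.233 FPKM in HPCs. Its last fall was 80.2-fold (54.9 to 126). COL11A1, whose chain joins cartilage fibrils, was at 4.51, 7.18, 7.68 and 6.69 FPKM. It changed by less than 1 on the log2 scale at each transition. COL11A2 did not exceed 1.26 FPKM, and COL5A3 did not exceed 0.292 FPKM.

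Of the 10 fibrillar collagen genes kept, 5 (50%) fell from HEPs to HPCs, 3 did neither, and COL2A1 and COL24A1 (20%) rose. Of all genes kept, 13.5% fell and 7.63% rose at this step. COL2A1 (chr12:47972965-48004486), the main collagen of cartilage, was at 4.10 FPKM in BC1 cells, 0.746 FPKM in APLNR+ cells, 1.76 FPKM in HEPs and 198 FPKM in HPCs. COL24A1 (chr1:85729233-86156943), a minor fibrillar collagen known from developing bone, was at 0.180, 0.143, 1.66 and 146 FPKM. The HPC library was thus higher than each of the other 3 for both genes. The step from HEPs to HPCs was 113-fold (97.6 to 131) for COL2A1 and 88.0-fold (73.9 to 105) for COL24A1. An estimated 19100 and 10409 fragments stood behind their HPC values. No other annotated gene of the table shared exon bases with either gene. Of the summed fibrillar FPKM, COL2A1 took 48.5% and COL24A1 35.7% in HPCs, against 0.286% and 0.270% in HEPs. At 198 FPKM, COL2A1 had the highest level of the 66 genes in HPCs.

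Markers of other cell types were examined beside this result. The list of fibroblast and mural cell markers summed to 594, 219, 866 and 71.3 FPKM in the 4 populations in order, and 7 of its 12 gene entries were kept. THY1 made up most of the BC1 sum, at 410 FPKM. Most of the HEP sum came from 1 RGS5 entry at 393 FPKM and THY1 at 340 FPKM. This RGS5 entry was at 12.3 FPKM in APLNR+ cells. In HPCs, 6 of the 12 were at 1 FPKM or above, with ACTA2 at 30.1 FPKM and THY1 at 27.6 FPKM, and the other 10 lay between 0 and 3.58 FPKM. DCN and FAP, which mark fibroblasts, were at 0 in HPCs and likewise in HEPs, but did not exceed 0.301 and 0.0201 FPKM in any library. LUM, of the same list, was at 0.187 FPKM in HEPs and 0.376 FPKM in HPCs. Endothelial markers summed to 1417 FPKM in HEPs and 382 FPKM in HPCs, and hematopoietic markers to 328 and 2214 FPKM. Pluripotency markers summed to 223 FPKM in HEPs and 195 FPKM in HPCs. In HPCs, 3 of the 8 were above 1 FPKM, namely LIN28A at 92.9, DNMT3B at 78.7 and DPPA4 at 22.5 FPKM, while SOX2 and TDGF1 were at 0 and POU5F1 was at 0.235 FPKM. SOX2 was at 0 in HEPs as well. Mesoderm markers summed to 221.9 FPKM in HEPs and 26.93 FPKM in HPCs, and endoderm markers to 39.74 and 21.96 FPKM. Neural markers summed to 97.49 FPKM in HEPs and 24.4 FPKM in HPCs, and cardiac muscle markers to 72.67 and 1.885 FPKM. The highest genes of these lists in HPCs were, in the same order, APLNR at 25.05, ALB at 16.09, NES at 18.04 and NKX2-5 at 1.232 FPKM. A set of 8 further cartilage genes was looked up after the COL2A1 value was seen. HAPLN1, a link protein, was at 437 FPKM in HEPs and 6.76 FPKM in HPCs. In HPCs, each of the other 7 was below HAPLN1. CHAD was at 0.400, MATN3 at 0.380, MATN1 at 0.290, ACAN at 0.121 and CNMD at 0.0822 FPKM. SOX9, the regulator of COL2A1 in cartilage, was at 0.0127 FPKM, and COMP was at 0. In HEPs, MATN3 was the highest of these 7, at 2.36 FPKM, and ACAN was at 0.0632 FPKM. The part of other cell types in the COL2A1 and COL24A1 values was not tested. Of the other cartilage collagens among the 66 genes, COL11A1 was at 6.69, COL9A3 at 3.41, COL9A2 at 1.56, COL11A2 at 0.352 and COL27A1 at 0.233 FPKM in HPCs, and COL9A1 and COL10A1 were at 0.

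**Figure D3:**
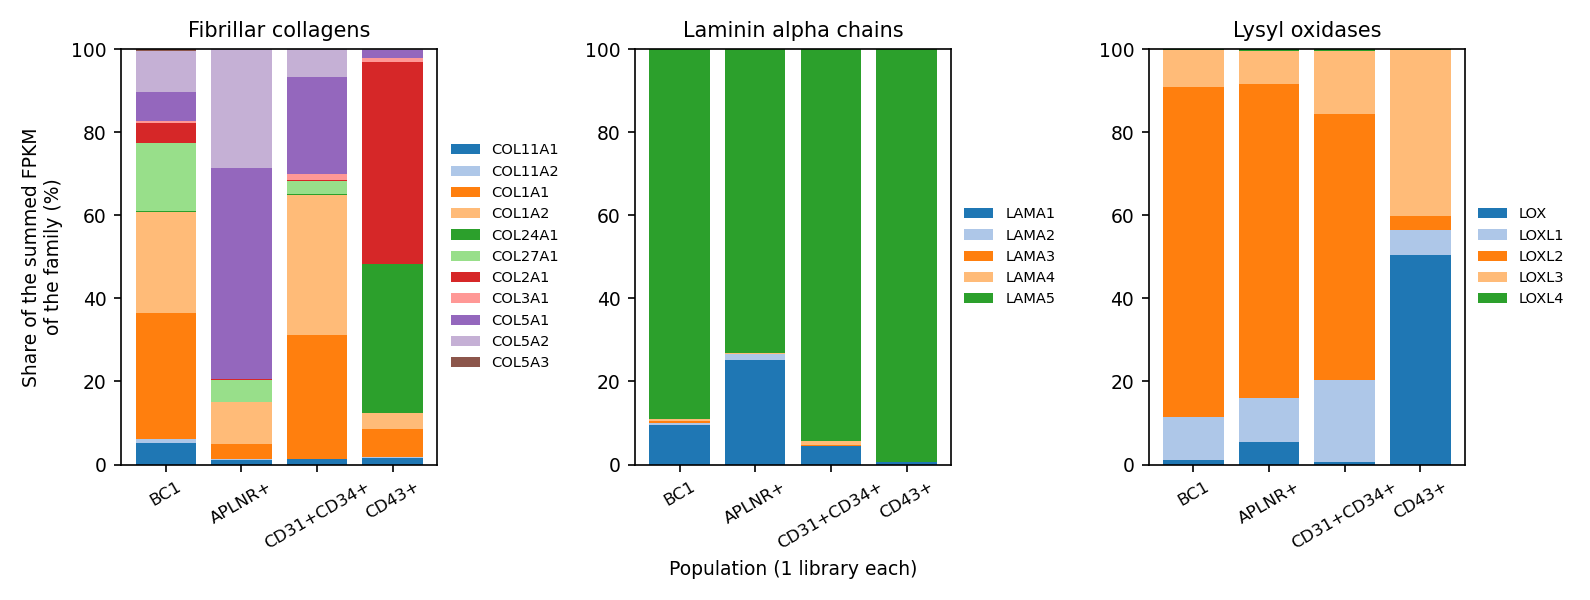
Share of the summed FPKM of each family taken by each member, in percent, for fibrillar collagens, laminin alpha chains and lysyl oxidases, with 1 stacked bar for each population. COL5A1 and COL5A2 fill most of the fibrillar bar in APLNR+ cells and COL2A1 and COL24A1 that in CD43+ cells, LAMA5 fills most of every alpha chain bar, and LOXL2 gives way to LOX and LOXL3 in CD43+ cells.

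The lysyl oxidases, copper enzymes that oxidise lysines of collagen and elastin, exchanged places at the last transition. LOX (chr5:122063195-122078360) was at 0.684 FPKM in BC1 cells, 3.67 FPKM in APLNR+ cells, 1.12 FPKM in HEPs and 56.8 FPKM in HPCs. LOXL2 (chr8:23297189-23425328) was at 50.9, 52.0, 123 and 3.81 FPKM. LOX rose 50.5-fold (40.5 to 63.5) from HEPs to HPCs, and LOXL2 fell 32.3-fold (23.4 to 45.5). LOX shares 138 exon bases with SRFBP1 on the opposite strand, which was at 3.62 FPKM in HPCs. LOXL2 shares 120 with ENTPD4 on the same strand, which was at 14.9, 30.3, 36.2 and 14.4 FPKM in the 4 populations. The part of ENTPD4 in the LOXL2 values was not tested. LOXL2 took 79.5%, 75.5%, 64.1% and 3.38% of the family's FPKM in the 4 populations. LOX took 0.585% in HEPs and 50.4% in HPCs. The summed level of the family was 64.1, 68.9, 192 and 113 FPKM.

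LOXL1, a lysyl oxidase tied to elastic fibres, was at 6.64 FPKM in BC1 cells, 7.42 FPKM in APLNR+ cells, 38.0 FPKM in HEPs and 6.93 FPKM in HPCs. LOXL3 was at 5.62, 5.53, 29.4 and 45.0 FPKM. Both rose in HEPs, by 5.12-fold (4.55 to 5.77) and 5.31-fold (4.64 to 6.09), but only LOXL1 fell again by at least 1. Each overlaps a gene on the opposite strand, and whether strand was used is not given in the sources used here. LOXL1 shares 335 exon bases with LOXL1-AS1, which was at 10.5, 6.98, 30.3 and 6.97 FPKM. LOXL3 shares 216 exon bases with DOK1, an adaptor protein gene of blood cells, which was at 5.91, 8.10, 36.3 and 58.9 FPKM, and 625 exon bases with HTRA2. Reads of such partners cannot be told apart without strand, and their part in these values was not tested. LOXL4 did not exceed 0.590 FPKM.

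The basement membrane genes were then compared, beginning with collagen IV. COL4A1 (chr13:110148963-110307149) was at 15.7 FPKM in BC1 cells, 19.3 FPKM in APLNR+ cells, 80.9 FPKM in HEPs and 7.57 FPKM in HPCs. COL4A2 (chr13:110305812-110513027), its partner across the shared promoter printed above, was at 25.5, 39.6, 161 and 19.6 FPKM. Both genes peaked in HEPs, with rises from mesoderm of 4.19-fold (3.82 to 4.61) and 4.07-fold (3.800 to 4.35) and falls in HPCs of 10.7-fold (9.30 to 12.4) and 8.20-fold (7.48 to 8.996). The ratio of COL4A2 to COL4A1 stayed between 1.63 and 2.59 over the 4 libraries.

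The other head-to-head pairs of the family differed in level. COL4A5 and COL4A6, whose RefSeq start sites lie 380 bases apart on the X chromosome, encode chains of a further collagen IV network. COL4A5 was at 7.27, 12.1, 23.1 and 15.6 FPKM, and COL4A6 at 3.81, 4.94, 9.62 and 2.37 FPKM. Both were highest in HEPs. From HEPs to HPCs, COL4A6 fell 4.06-fold (3.595 to 4.60), whereas COL4A5 was 1.48-fold lower (1.35 to 1.64), and the ratio of COL4A5 to COL4A6 went from 2.40 to 6.58. COL4A3 and COL4A4, 419 bases apart on chromosome 2 and known from the kidney filter, did not exceed 0.462 and 0.216 FPKM.

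Among laminin alpha chains, LAMA5 dominated. LAMA5, the alpha chain of laminin 511, was at 125 FPKM in BC1 cells, 52.8 FPKM in APLNR+ cells, 117 FPKM in HEPs and 56.8 FPKM in HPCs. It took 88.9%, 73.0%, 94.3% and 99.3% of the alpha chain FPKM. It was low and high in turn, with a fall in mesoderm of 2.36-fold (2.29 to 2.43) and a rise in HEPs of 2.21-fold (2.15 to 2.27). LAMA1, the alpha chain of early embryonic basement membranes, was at 13.4, 18.3, 5.43 and 0.305 FPKM. Its share of the alpha chains was largest in mesoderm, at 25.3%, and it fell 17.8-fold (12.7 to 26.0) from HEPs to HPCs. LAMA4, the alpha chain known from blood vessel walls, was at 0.950, 0.183, 1.36 and 0.0616 FPKM. LAMA2 and LAMA3 stayed under 1 FPKM.

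The beta and gamma chains that pair with LAMA5 were present throughout. LAMB1 was at 18.3 FPKM in BC1 cells, 44.2 FPKM in APLNR+ cells, 58.5 FPKM in HEPs and 29.6 FPKM in HPCs. LAMB2 was at 59.1, 53.3, 111 and 78.3 FPKM, and LAMC1, the common gamma chain, at 27.5, 19.3, 48.6 and 33.8 FPKM. All 3 were highest in HEPs, and none of them fell by at least 1 in HPCs, where they were 1.97-fold (1.86 to 2.09), 1.42-fold (1.38 to 1.46) and 1.44-fold (1.37 to 1.504) lower. LAMB1 lay close to the limit, with a change of -1.07 when each library was scaled to the same total. LAMC3, a gamma chain found outside the classical trimers, was at 15.4, 35.1, 34.0 and 3.67 FPKM. It alone of the gamma chains had most of the gamma FPKM in mesoderm, at 64.1%, and it fell 9.27-fold (8.32 to 10.4) in HPCs. LAMB3, a beta chain of epithelia, reached 0.623 FPKM, and LAMB4 was at 0 in all 4 libraries.

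**Figure D4:**
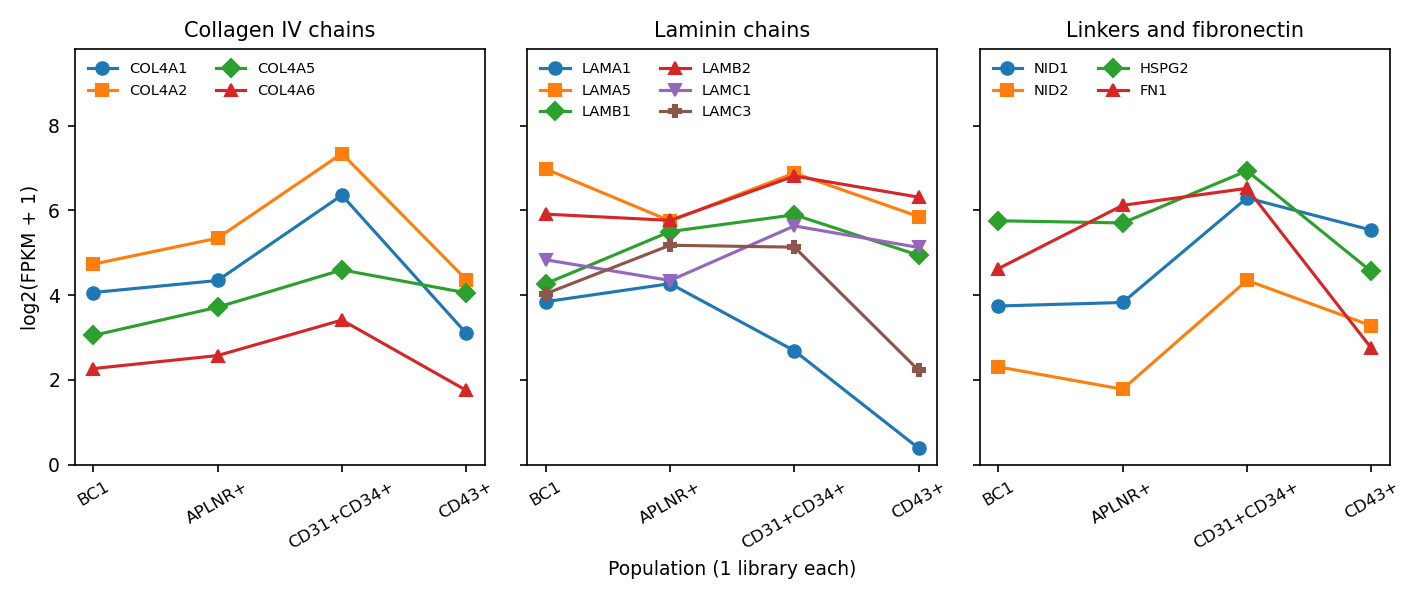
log2(FPKM + 1) of collagen IV chains, laminin chains, and nidogens, perlecan (HSPG2) and fibronectin (FN1) in the 4 populations, with 1 library for each point. All 4 collagen IV chains peak in CD31+CD34+ cells, and of the laminins drawn LAMA1 and LAMC3 are the lowest in CD43+ cells, at 0.305 and 3.67 FPKM.

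The linker genes rose late. NID1, a nidogen that bridges laminin and collagen IV, was at 12.4 FPKM in BC1 cells, 13.2 FPKM in APLNR+ cells, 77.3 FPKM in HEPs and 45.3 FPKM in HPCs. NID2 was at 3.94, 2.43, 19.3 and 8.69 FPKM. Both rose in HEPs, by 5.87-fold (5.56 to 6.20) and 7.96-fold (6.85 to 9.34). NID2 shares 1915 exon bases, 29.96% of its exon bases, with RTRAF on the opposite strand, which was at 112, 73.4, 70.5 and 56.3 FPKM. HSPG2, the gene of the proteoglycan perlecan, was at 52.9, 51.0, 121 and 22.5 FPKM. It rose 2.37-fold (2.17 to 2.60) in HEPs and fell 5.37-fold (4.73 to 6.11) in HPCs, whereas NID1 was 1.71-fold lower (1.65 to 1.77) in HPCs.

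FN1, the gene of fibronectin, rose 2.89-fold (2.79 to 3.005) in mesoderm and was 1.32-fold higher (1.29 to 1.36) in HEPs, with 23.6, 68.4, 90.6 and 5.73 FPKM in the 4 populations. It fell 15.8-fold (14.8 to 16.9) in HPCs. SPARC, a secreted collagen-binding protein, was at 274 FPKM in BC1 cells, 1459 FPKM in APLNR+ cells, 648 FPKM in HEPs and 125 FPKM in HPCs. It had the highest level of the 66 genes in the first 3 populations. It rose 5.33-fold (5.06 to 5.61) in mesoderm and fell at both later steps.

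Collagen VI, which forms beaded filaments around cells, had its chains at unequal levels. COL6A1 was at 81.2 FPKM in BC1 cells, 401 FPKM in APLNR+ cells, 133 FPKM in HEPs and 20.2 FPKM in HPCs. COL6A2 was at 38.2, 128, 218 and 20.1 FPKM. Both rose in mesoderm, by 4.94-fold (4.80 to 5.08) and 3.34-fold (3.19 to 3.51), but COL6A1 peaked there and COL6A2 in HEPs. The ratio of COL6A1 to COL6A2 went from 3.14 in mesoderm to 0.612 in HEPs. COL6A3, the third chain of the molecule, was at 1.98, 0.925, 1.23 and 2.61 FPKM, below both partners in every library. COL6A6 reached 3.004 FPKM in mesoderm and at most 0.301 FPKM elsewhere.

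Collagens of the cell membrane and of fibril surfaces were mostly genes of BC1 or mesoderm. COL13A1, a transmembrane collagen of cell adhesions, was at 2.43 FPKM in BC1 cells, 37.1 FPKM in APLNR+ cells, 3.08 FPKM in HEPs and 0.0342 FPKM in HPCs. COL9A2, a chain of collagen IX that decorates fibrils, was at 2.45, 54.5, 7.37 and 1.56 FPKM. Both were highest in mesoderm, where they were 15.3-fold (12.4 to 19.0) and 22.2-fold (13.3 to 38.6) above BC1. COL9A3, another chain of collagen IX, was at 49.9, 27.6, 6.96 and 3.41 FPKM, and COL9A1, the remaining chain, at 7.18, 1.04, 0.152 and 0 FPKM. The 3 chains thus did not follow each other. COL26A1 was at 96.6, 77.9, 19.5 and 1.89 FPKM, so it fell 4.001-fold (3.76 to 4.26) in HEPs and 10.3-fold (8.45 to 12.6) in HPCs. COL14A1 and COL21A1, also collagens of fibril surfaces, fell from 6.46 and 3.35 FPKM in BC1 to 0.233 and 0.140 FPKM in mesoderm.

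COL25A1 and COL23A1, transmembrane collagens, moved in opposite directions in HEPs. COL25A1 was at 1.74 FPKM in BC1 cells, 1.93 FPKM in APLNR+ cells, 11.7 FPKM in HEPs and 6.12 FPKM in HPCs. COL23A1 was at 5.28, 12.4, 3.56 and 7.27 FPKM. COL18A1, the basement membrane collagen from which endostatin is cleaved, was at 121, 47.5, 102 and 153 FPKM. Its low point in mesoderm was 2.55-fold (2.47 to 2.64) below BC1, and it was highest in HPCs, where most collagens were low. It shares 1401 exon bases with SLC19A1 on the opposite strand, which stayed between 14.4 and 27.0 FPKM. COL15A1, the other collagen of this type and a vessel wall protein, was above 1 FPKM only in HEPs, at 2.18 FPKM. COL7A1, the collagen of anchoring fibrils in skin, was at 4.33, 3.21, 4.33 and 9.67 FPKM. Its change of 1.0004 in HPCs lay at the limit for a rise, and it did not pass when each library was scaled to the same total.

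The low genes complete the account. Genes between 1 and 10 FPKM also included COL8A2, COL16A1 and COL22A1, which did not exceed 1.30, 7.01 and 3.04 FPKM and were at most 0.587 FPKM in HPCs. The 16 genes under 1 FPKM were COL4A3, COL4A4, COL5A3, COL6A5, COL8A1, COL10A1, COL12A1, COL17A1, COL19A1, COL20A1, COL28A1, LAMA2, LAMA3, LAMB3, LAMB4 and LOXL4.

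**Figure D5:**
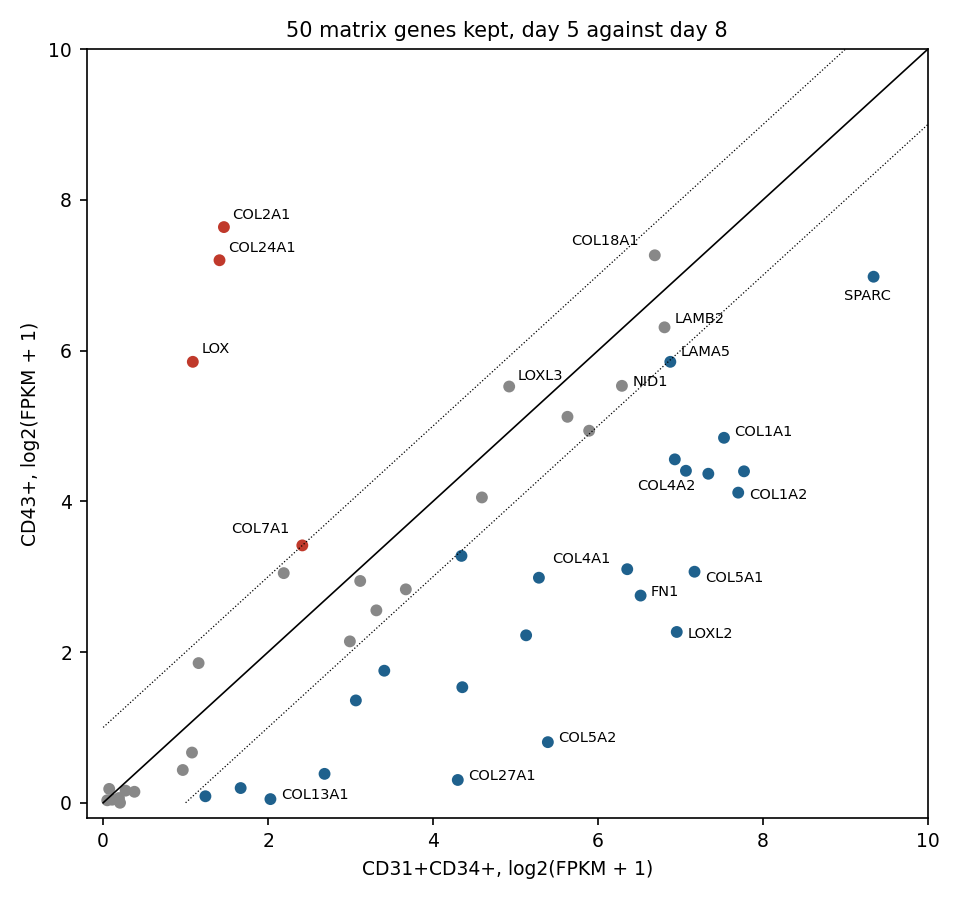
Level of the 50 matrix genes kept in CD31+CD34+ cells (horizontal) and CD43+ cells (vertical), both as log2(FPKM + 1), with a solid line at equal levels and dotted lines at a difference of 1. Red points rose (4), blue points fell (24) and grey points did neither (22), and COL2A1, COL24A1 and LOX stand far above the line.

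Genes that make, bind and degrade the matrix were examined in lists, for which the same limits of 1 FPKM and 1 on the log2 scale were used. Of 30 genes of collagen synthesis, 27 were kept. They comprise the enzymes that hydroxylate prolines and lysines, the collagen chaperone, and the proteases that trim the chains. From BC1 to mesoderm 5 rose and 2 fell, to HEPs 2 rose and 3 fell, and to HPCs 1 rose and 12 fell, with median changes of 0.58, -0.01 and -0.82. The shares that rose were 18.5%, 7.41% and 3.70%, against 9.15%, 13% and 7.63% of all genes. The shares that fell were 7.41%, 11.1% and 44.4%, against 9.32%, 11.4% and 13.5% of all genes. P3H2, a prolyl 3-hydroxylase, rose 21.4-fold (18.5 to 24.97) in mesoderm, from 6.08 to 130.4 FPKM. COLGALT1, which adds galactose to collagen, and P4HA1, a prolyl 4-hydroxylase chain, rose beside it, from 54.3 to 141 FPKM and from 11.3 to 24.4 FPKM. In HEPs, the transcription factor gene CREB3L1 and P4HA2 rose from 5.53 and 9.82 FPKM to 22.5 and 21.4 FPKM. P3H2, PCOLCE2 and PLOD2 fell there, to 21.2, 2.32 and 8.35 FPKM. PLOD2, the lysyl hydroxylase that prepares collagen ends for crosslinking, was the gene that rose in HPCs, from 8.35 to 30.7 FPKM, while PCOLCE, an enhancer of procollagen cleavage, fell from 39.8 to 9.53 FPKM. CREB3L1 and P4HA2 fell again in HPCs, to 6.49 and 6.19 FPKM.

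Of 25 receptors for matrix proteins, 22 were kept, and 4, 7 and 2 rose and 6, 6 and 13 fell at the 3 transitions. The shares that rose were 18.2%, 31.8% and 9.09%, against 9.15%, 13% and 7.63% of all genes, so the last was near that of all genes. The shares that fell were 27.3%, 27.3% and 59.1%, against 9.32%, 11.4% and 13.5% of all genes. ITGA6, a laminin receptor chain, fell from 35.1 to 0.647 FPKM in mesoderm, where ITGA5, the fibronectin receptor chain, rose from 5.84 to 150.5 FPKM. CD44 and SDC4 rose there as well, to 13.1 and 54.8 FPKM, and the laminin receptors BCAM and ITGA7 fell, to 8.65 and 10.9 FPKM. In HEPs, ITGA10, a collagen receptor chain, rose from 0.163 to 15.8 FPKM, and ITGB5 fell from 343 to 35.8 FPKM. ITGA3 and CD44 also rose in HEPs, to 33.3 and 97.5 FPKM, and the syndecan genes SDC1 and SDC2 fell to 5.04 and 3.56 FPKM. In HPCs, ITGB3, the integrin chain of platelets, rose from 6.68 to 501 FPKM, and ITGA5 fell from 132 to 10.3 FPKM. ITGA3 and SDC3 fell to 2.25 and 2.95 FPKM. The median changes of the receptors were -0.01, 0.03 and -1.24.

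Of 23 metalloproteinase and inhibitor genes, 15 were kept, and 3, 4 and 1 rose and 3, 2 and 8 fell at the 3 transitions, with median changes of -0.19, 0.57 and -1.16. The shares that rose were 20%, 26.7% and 6.67%, against 9.15%, 13% and 7.63% of all genes. Those that fell were 20%, 13.3% and 53.3%, against 9.32%, 11.4% and 13.5% of all genes. The rise in HPCs and the fall in HEPs were near the shares of all genes. MMP2, a gelatinase, was at 20.8, 76.4, 106.5 and 10.1 FPKM, and MMP14, which activates it, at 45.4, 191, 235 and 63.7 FPKM. TIMP3, an inhibitor held in the matrix, rose 8.27-fold (7.70 to 8.89) in HEPs and 9.82-fold (9.59 to 10.1) in HPCs, to 726 FPKM. TIMP1 and MMP9 rose in HEPs, to 265 and 11.7 FPKM, where MMP17 and MMP25 fell to 4.69 and 3.17 FPKM. MMP15 fell in HPCs, from 66.5 to 15.2 FPKM.

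Of 23 elastic fibre and matricellular genes, 22 were kept, and 10, 4 and 3 rose and 2, 6 and 9 fell, with median changes of 0.70, -0.12 and -0.90. The shares that rose were 45.5%, 18.2% and 13.6%, against 9.15%, 13% and 7.63% of all genes. Those that fell were 9.09%, 27.3% and 40.9%, against 9.32%, 11.4% and 13.5% of all genes. The fall in mesoderm was near the share of all genes. FBN2, a fibrillin of embryonic tissue, was at 6.61, 176, 34.7 and 2.69 FPKM. MFAP4, a microfibril protein, rose from 2.08 to 511 FPKM in mesoderm and fell to 0.264 FPKM in HEPs, and EFEMP2, which helps to assemble elastic fibres, rose to 21.7 FPKM in mesoderm. EMILIN1, FBLN2 and AGRN rose in HEPs, to 33.0, 225 and 164 FPKM, and TNC fell to 3.91 FPKM. THBS1 and LTBP1, matrix proteins that platelets also carry, rose in HPCs from 1.47 and 18.5 FPKM to 579 and 159 FPKM, while VCAN fell from 11.5 to 0.313 FPKM and FBLN1 from 247 to 31.2 FPKM.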

How the data were processed

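Total RNA had been turned into libraries with the TruSeq RNA kit of Illumina. The authors deposited gene-level FPKM values, 1 column per population, and all 4 columns were used. The submitters' processing notes name BWA, Bowtie, RSEM and the build hg19, without roles. However, 55629 of the 55647 identifiers with a version found in GENCODE release 29 had the same start and end there. GRCh38 positions, 1-based, are therefore used. Among the 66 matrix genes, 48 had the same version, start and end. For the others, transcript lengths came from the GENCODE 29 entry of the same identifier, whatever its version. Promoter sequences and start sites are from RefSeq, GRCh38.p14.

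The 58365 rows were summed by gene identifier. The 66 genes were matched by symbol, and none was on more than 1 row. Values of 1 of them are not reported here, though it is part of the counts. Values were analysed as log2(FPKM + 1) for genes that reached 1 FPKM in any library. The spacing of low FPKM values gave the depth, from genes with 1 transcript of at least 1000 bases, where between 92.6% and 94.6% of values fell within 0.1 of a whole fragment. The recovery and the intervals were tested on simulated data. Fragments were estimated from the median length of a gene's protein-coding transcripts. This length is short for several genes, among them HSPG2, SPARC, LOXL2, COL9A2, COL4A1 and COL4A2, which makes their intervals too wide. With the longest transcript, the interval of the COL9A2 rise in mesoderm was 18.6 to 26.7. FPKM are not counts, so no count model was used.

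Every matrix gene that reached 10 FPKM in any library was named with their values. In the other lists, genes that reached 10 FPKM in the higher of both libraries and changed by 1 or more were ranked, and up to 3 in each direction were named per transition. The 66 genes, the lists and the alternatives were chosen with earlier results of these data known. Python 3.11.15, pandas 2.3.3 and scipy 1.17.1 were used.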

Additional observations from a re-analysis of the deposited data

How the results depend on the processing

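Each population had 1 library, so variation between cultures or sorts was not measured and leaving out a replicate could not be done. No paired analysis was possible because each population has 1 sample. The counts, medians and peak populations of the matrix genes were recomputed with a pseudocount of 0.1, without the filter, with a filter of 5 FPKM, with 2 other scalings and, where it applies, with the mean, the highest row of a gene or a change of at least 2. No median change of the matrix genes turned its direction under these settings. With a change of at least 2, 6 genes rose and 2 fell in mesoderm, 8 rose and 3 fell in HEPs, and 10 rose then fell. For this last count, the share of all genes at the stricter limit was not computed. Genes highest in BC1 numbered 18 without the filter and 5 with a filter of 5 FPKM. The shares of all genes highest in BC1 under these settings were not computed. The other 82 recomputed counts, medians and peak populations stayed within set limits, which were wide enough to let 24 genes that fell in HPCs become 17. They include the values from the highest row of a gene. These could not differ, since none of the 66 genes was on more than 1 row. Of the recomputed log2 changes of the named genes, 53 moved by more than the limit set from counting error. Another 457 recomputed values of these genes were counted as the same. These include log2 changes from the highest row and folds with the longest transcript, which could not differ. Under scaling to the same total the median change of all genes from HEPs to HPCs was -0.17.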
